A study of Mus musculus with 18 samples.

Results

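Mouse bone marrow-derived macrophages given interleukin-4 (IL-4) for 6 h were compared with untreated macrophages, with 2 RNA sequencing libraries in each group. The libraries were chosen by their labels alone, and make up 4 of the 18 libraries of the series and 4 of the 6 in the stimulation table. All groups were wild-type C57BL6/J cells. Bone marrow was cultured for 7 days in 20% L929-conditioned medium, a source of the growth factor M-CSF, and 80% DMEM with serum. The 2 libraries of the same table from cells given lipopolysaccharide (LPS), a bacterial wall component, for 6 h entered the same statistical model and are given beside the results as a second stimulus. The labels give no dose, sex or age, and do not say whether the 2 libraries of a group came from separate mice or cultures, so p-values measure only the spread between these libraries.

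IL-4 is a type 2 cytokine made by T helper cells, basophils, mast cells and eosinophils. It binds the IL-4 receptor alpha chain, which pairs with the common gamma chain or with the IL-13 receptor alpha 1 chain, and Janus kinases on these chains phosphorylate the transcription factor STAT6. In macrophages STAT6 switches on a program known as alternative activation, whose classic products are arginase 1, the chitinase-like protein Chil3, the resistin-like protein Retnla and the mannose receptor Mrc1. LPS acts through Toll-like receptor 4 and drives inflammatory cytokine genes instead.

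STAT6 is known for binding palindromes with 4 bases between the half-sites, and other STAT factors for palindromes with 3. Promoters of genes at both ends of the response were searched on both strands for TTCNNNNGAA (STAT6-type), TTCNNNGAA (STAT-type) and GAAANNGAAA (interferon-type, the element of interferon response genes). Sequences came from RefSeq (GRCm38.p6) and run from 250 bases before to 50 after an annotated start. The first 3 belong to genes among the 20 largest rises and are shown because they hold a STAT6-type match, and their capitals mark it. Retnla lies at chr16:48842359-48842658, plus strand, Pdcd1lg2 at chr19:29410669-29410968, plus strand, and Tmem26 at chr10:68723496-68723795, plus strand.
Retnla: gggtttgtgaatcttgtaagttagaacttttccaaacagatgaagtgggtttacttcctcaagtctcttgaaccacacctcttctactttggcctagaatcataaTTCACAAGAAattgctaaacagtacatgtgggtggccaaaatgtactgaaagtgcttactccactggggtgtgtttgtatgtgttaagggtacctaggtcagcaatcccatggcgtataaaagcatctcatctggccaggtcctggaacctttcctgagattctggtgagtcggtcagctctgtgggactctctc
Pdcd1lg2: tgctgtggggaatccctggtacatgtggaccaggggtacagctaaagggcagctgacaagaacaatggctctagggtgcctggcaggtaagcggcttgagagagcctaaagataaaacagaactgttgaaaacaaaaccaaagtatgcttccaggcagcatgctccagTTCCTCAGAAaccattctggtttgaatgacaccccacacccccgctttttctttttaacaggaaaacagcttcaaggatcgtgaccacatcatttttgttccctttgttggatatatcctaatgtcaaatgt
Tmem26: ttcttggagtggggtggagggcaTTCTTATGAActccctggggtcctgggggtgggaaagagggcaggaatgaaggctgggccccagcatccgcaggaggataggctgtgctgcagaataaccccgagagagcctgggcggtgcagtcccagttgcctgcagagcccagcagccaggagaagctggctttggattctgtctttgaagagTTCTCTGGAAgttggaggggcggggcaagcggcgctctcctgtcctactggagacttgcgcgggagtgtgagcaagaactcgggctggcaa
The Retnla match began 145 bases before the start, the Pdcd1lg2 match 82 bases before it, and the Tmem26 matches 227 and 41 bases before it. Matches are descriptions of letters, not of binding.

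The feedback inhibitors Cish (chr9:107296409-107296708, plus strand) and Socs1 (chr16:10785487-10785786, minus strand) rose too, and held other motifs. Capitals mark 2 STAT-type matches in Cish, which began 0 and 11 bases after the start. In Socs1 they mark 2 interferon-type matches, which overlapped each other and began 83 and 77 bases before the start.
Cish: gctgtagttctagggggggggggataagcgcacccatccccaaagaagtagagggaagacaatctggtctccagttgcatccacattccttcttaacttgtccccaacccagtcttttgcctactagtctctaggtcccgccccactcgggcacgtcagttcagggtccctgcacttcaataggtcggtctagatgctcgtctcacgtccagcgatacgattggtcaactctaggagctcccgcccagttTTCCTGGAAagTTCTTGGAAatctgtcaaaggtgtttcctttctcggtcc
Socs1: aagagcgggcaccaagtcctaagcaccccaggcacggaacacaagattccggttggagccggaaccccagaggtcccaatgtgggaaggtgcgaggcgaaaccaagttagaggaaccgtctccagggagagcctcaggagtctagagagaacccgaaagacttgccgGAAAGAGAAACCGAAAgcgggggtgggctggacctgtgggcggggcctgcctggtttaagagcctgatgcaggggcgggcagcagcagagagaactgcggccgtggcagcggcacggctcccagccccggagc
Both sequences below are from genes among the 20 largest falls, the near-identical copies Ifit3 (chr19:34583279-34583578, plus strand) and Ifit3b (chr19:34607707-34608006, plus strand), with 2 interferon-type matches each in capitals. These began 156 and 122 bases before the Ifit3 start, and 188 and 154 bases before the Ifit3b start.
Ifit3: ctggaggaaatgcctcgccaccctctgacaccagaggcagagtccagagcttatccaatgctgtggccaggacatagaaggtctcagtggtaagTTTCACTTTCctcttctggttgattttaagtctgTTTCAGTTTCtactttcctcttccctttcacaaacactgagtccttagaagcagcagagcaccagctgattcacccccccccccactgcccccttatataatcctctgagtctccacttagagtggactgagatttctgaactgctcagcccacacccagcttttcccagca
Ifit3b: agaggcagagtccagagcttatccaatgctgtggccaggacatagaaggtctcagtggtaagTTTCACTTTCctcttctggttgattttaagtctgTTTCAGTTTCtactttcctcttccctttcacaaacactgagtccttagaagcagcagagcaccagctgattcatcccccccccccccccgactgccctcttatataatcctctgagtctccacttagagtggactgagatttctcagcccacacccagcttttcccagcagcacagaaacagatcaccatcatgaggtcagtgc
Over the whole genome table, 6.95% of 32851 promoters held the STAT6-type motif, 8.30% the STAT-type and 3.44% the interferon-type. Among promoters of the 12506 genes tested these shares were 5.38, 6.86 and 3.27%. Promoters of genes that rose by over 2 log2 units held the STAT6-type motif in 28 of 275 cases (10.2%), the STAT-type in 22 (8.0%) and the interferon-type in 6 (2.18%). For genes that fell by over 2 log2 units the counts were 5 (4.42%), 14 (12.4%) and 11 (9.73%) of 113. Genes can have several promoters in this table, and 203 of the 280 genes that rose this far and 94 of the 129 that fell had at least 1.

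The 6 stimulation libraries held 34.23 to 39.76 M counts, with 14310 to 14988 genes detected in each, and the first 2 principal components separated the 3 groups (73.3 and 18.5% of the variance). Replicates differed within groups: 935 of 12506 genes (7.48%) were over 2-fold apart between the control libraries, 413 (3.30%) between the IL-4 libraries and 319 (2.55%) between the LPS libraries. Xist, the noncoding RNA of the inactive X chromosome, was at 110 and 895 counts per 1000000 of the library's total (CPM) in control replicates 1 and 2 and at 751 and 259 in IL-4 replicates 1 and 2. Such differences stood in principal component 3 (6.12%), and genes that carried them, such as Tlr4, Mki67 and Tet2, had large standard errors of the log2 fold change (0.55, 0.73 and 0.52). Their part in the results was not tested. As cell identity, the 14 macrophage markers summed to 46330 and 40925 normalised CPM in control and to 33864 and 36390 with IL-4, led by the lysozyme gene Lyz2, while Csf1r, the M-CSF receptor, stood at 5860 and 5055 in control and 5473 and 6344 with IL-4. Of the 14, Cd14, Fcgr1 and Lyz2 fell. Normalised CPM are CPM after scaling by the trimmed mean of M values (TMM), and all levels below are on this scale unless stated. In bulk RNA, fewer cells of a type and less RNA per cell cannot be told apart.

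IL-4 changed 2513 of 12506 genes tested (20.1%), at an adjusted p under 0.05 in edgeR's quasi-likelihood test with Benjamini-Hochberg adjustment. Of these, 1205 rose (9.64%) and 1308 fell (10.5%). The counts were near each other but the sizes were not: 643 genes rose by over 1 log2 unit and 540 fell by as much, 280 rose and 129 fell by over 2, and 93 rose and 11 fell by over 4. The median log2 fold change of all tested genes was -0.04. Single libraries mattered for small changes, and for some large ones. Without IL-4 replicate 1 there were 537 rises and 339 falls, and without IL-4 replicate 2 there were 512 and 385. In total 476 of the rises and 305 of the falls were called in all 6 fits that left out 1 library, and such calls are said below to have held.

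**Figure D1:**
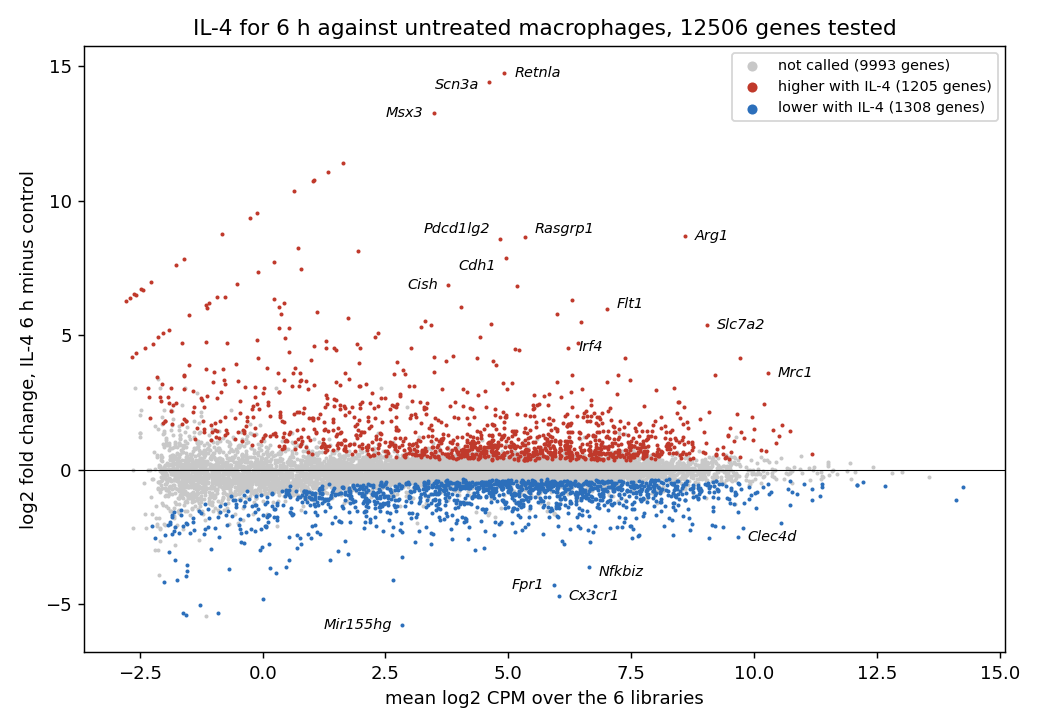
Log2 fold change (IL-4 minus control) of each tested gene against its mean log2 CPM over the 6 libraries. Red points are the 1205 genes called higher and blue points the 1308 called lower at an adjusted p under 0.05, grey points were not called; the points reach farther above 0 than below it, with 93 rises and 11 falls of over 4 log2 units, and the fitted values of genes at 0 counts in control depend on edgeR's prior count.

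All 20 of the largest rises held. The rule took called genes without overlap of IL-4 and control libraries. They were chosen for size among those whose log2 CPM averaged 2 or more over the 6 libraries. For 3 of them there was no count in either control library: the secreted resistin-like effector Retnla stood at 83.2 and 97.4 CPM with IL-4, the neuronal sodium channel gene Scn3a at 92.7 and 52, and the homeobox gene Msx3 at 35 and 31. Against a floor of 3 counts over the control group these were at least 2552-fold, 1993-fold and 924-fold higher. Scn3a overlaps the gene Gm13595 on the other strand, and Retnla had 0 and 0.0349 CPM in the LPS libraries.

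Arg1, the arginase that turns arginine into ornithine and urea, stood at 3.07 and 2.39 CPM in control and at 1073 and 1160 with IL-4. Its log2 fold change was 8.67 ± 0.23 (SE, 2 libraries per group; adjusted p = 7.1e-05). The LPS libraries, at 41.4 and 32.3 CPM, lay far below the IL-4 libraries (log2 difference 4.92, adjusted p = 2.7e-05). Arg1 lies at chr10:24915221-24927484 on the minus strand (GENCODE vM21, GRCm38). Per kilobase of exon, Arg1 averaged 501 normalised CPM with IL-4, Mrc1 averaged 474 and Retnla 151.

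Genes for signalling and cell surface proteins followed. Rasgrp1, an activator of Ras, rose from 0.144 and 0.281 to 92.2 and 83.3 CPM (log2 8.66 ± 0.25). Pdcd1lg2, which encodes the PD-1 ligand PD-L2, rose from 0.264 and 0.164 to 82.1 and 85 (8.59 ± 0.2). Cdh1, the adhesion protein E-cadherin, rose from 0.288 and 0.469 to 89.8 and 90.5 (7.88 ± 0.22). In each of these 3 the IL-4 libraries lay close together and the control libraries were near 0. The vascular growth factor receptor Flt1 rose by 5.95 ± 0.2, the membrane protein gene Tmem26 by 5.77 ± 0.21, the integrin beta chain Itgb3 by 5.5 ± 0.21 and the glycosyltransferase B3gnt7 by 6.04 ± 0.16 log2 units.

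Gm21948 rose from 2.97 and 2.7 to 211 and 238 CPM (log2 6.31 ± 0.22). RefSeq lists this symbol as a synonym of Il4i1b, for the secreted amino acid oxidase known as IL-4-induced 1, and the table of counts has no row named Il4i1. The last gene among the 20, the growth factor Nrg1, had a log2 fold change of 5.06, and the next outside was Plekhf1 at 4.92.

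**Figure D2:**
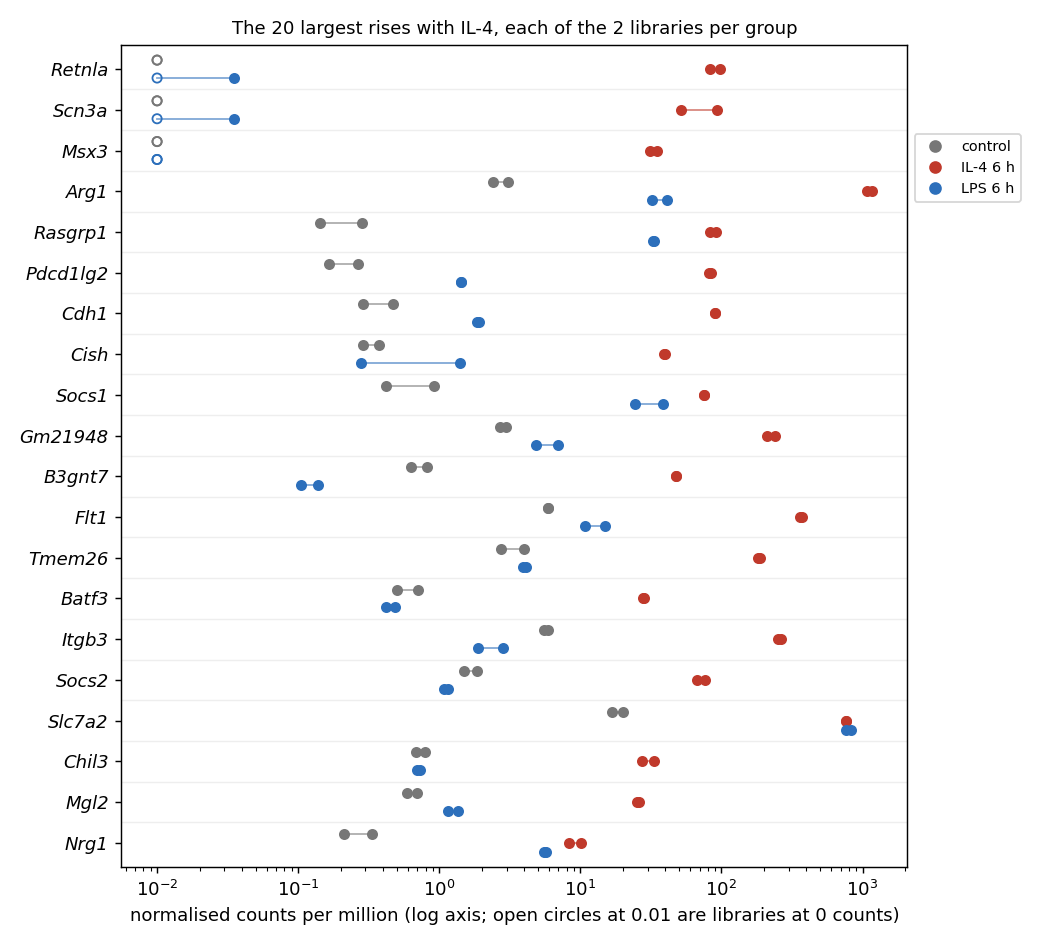
Normalised CPM (log axis) of the 20 genes with the largest rises in each control, IL-4 and LPS library; open circles at 0.01 are libraries with 0 counts. By the rule that chose these genes, the 2 IL-4 points lie to the right of both control points in every row. In the row of Slc7a2 the LPS points (834 and 769) lie close to the IL-4 points (761 and 763).

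Of 19 tested members of the IL-4 receptor and JAK-STAT6 list, 4 rose and 3 fell (over all genes 9.64% rose and 10.5% fell), with a median log2 fold change of -0.13 against -0.04 over all genes; 1 of the rises held and none of the falls. That 1 was Jak2, a kinase of the second receptor type, which rose from 47.6 and 72.1 to 287 and 233 CPM (log2 2.12 ± 0.22, adjusted p = 0.0025). Il4ra, the ligand-binding chain, rose from 170 and 130 to 312 and 325 CPM (1.09 ± 0.19), a call lost without either IL-4 library (adjusted p up to 0.083). Il13ra1, the partner chain of the second receptor type, fell from 9.19 and 16.4 to 6.77 and 5.02 CPM (-1.12 ± 0.30), and its call was lost in 5 of the 6 fits without 1 library.

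Stat6 itself did not pass the test: it stood at 431 and 390 CPM in control and at 313 and 339 with IL-4 (-0.33 ± 0.1, adjusted p = 0.075). The common gamma chain Il2rg, Jak1, Jak3 and Tyk2 were not called either, with log2 fold changes of -0.13, 0.35, -0.21 and -0.09. The adaptor Irs2 rose by 1 ± 0.23, and lost its call in 3 of the 6 fits without 1 library. Gfi1, a repressor known as an IL-4 target in lymphocytes, had 0 counts in control and 15 over both IL-4 libraries, at least 5.07-fold higher, and its call was lost in 3 fits. LPS libraries stood above IL-4 libraries for Il4ra (log2 difference -2.99, adjusted p = 0.00013) and for Jak2 (-1.46, adjusted p = 0.0025).

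Several feedback inhibitors of cytokine receptors rose. Of 15 tested members of the SOCS, CIS and phosphatase list, 4 rose and 1 fell (20.1% of all genes were called). The median was 0.26, and 3 of the rises held. Cish, which encodes the STAT-induced inhibitor CIS, rose from 0.288 and 0.375 to 39.5 and 38.9 CPM (6.87 ± 0.59, adjusted p = 0.0013). Socs1, an inhibitor of Janus kinases, rose from 0.912 and 0.422 to 75.8 and 75.6 CPM (6.82 ± 0.41). Socs2 rose from 1.85 and 1.5 to 76.2 and 67 CPM (5.42 ± 0.16). All 3 had IL-4 libraries far from control libraries, but they differed in the LPS libraries: Socs1 reached 38.2 and 24.5 there, whereas Cish was at 1.39 and 0.279 and Socs2 at 1.15 and 1.08. Socs3, the inhibitor of the IL-6 receptor family, was not called (6.55 and 6.35 in control, 4.8 and 5.22 with IL-4), while the LPS libraries were at 1597 and 1130 CPM. Socs5 rose by 0.73 ± 0.12 and the phosphatase Ptpn6, or SHP-1, fell by 0.62 on the log2 scale (SE 0.09); neither held. Cish overlaps Gm17040 and Gm17041 on the other strand.

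**Figure D3:**
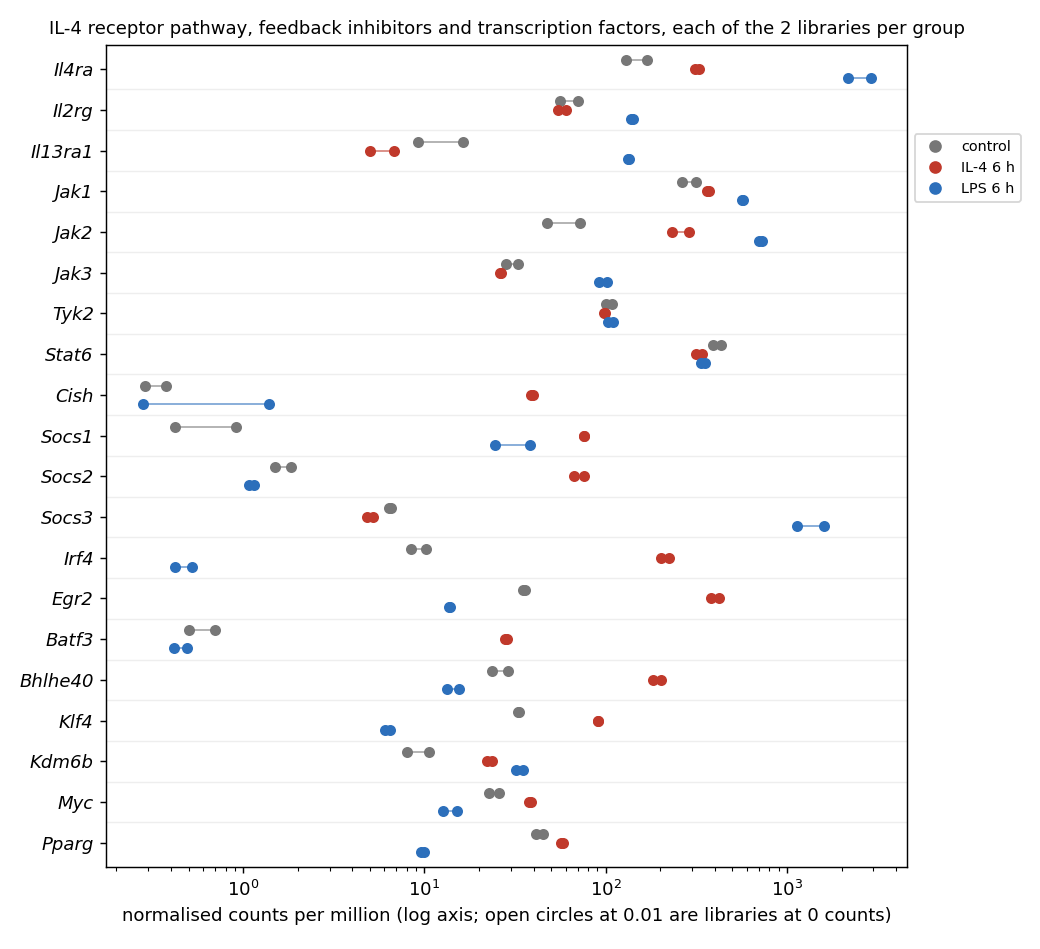
Normalised CPM (log axis) of 8 receptor pathway genes, 4 SOCS family genes and 8 transcription or chromatin factors in each library. The IL-4 points of Cish, Socs2, Irf4 and Batf3 lie to the right of all control and LPS points, whereas those of Stat6 and Tyk2 lie close to the control points.

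The list of transcription and chromatin factors downstream of STAT6 also holds the growth factor gene Hbegf (2.44 ± 0.19). Of 26 tested genes in it, 16 rose and 3 fell, where 9.64% of all genes rose and 10.5% fell. The median was 0.63, and 11 of the rises and 2 of the falls held. Batf3, a dendritic cell and T cell AP-1 factor, rose from 0.504 and 0.703 to 27.8 and 28.4 CPM (5.53 ± 0.19). Irf4, an interferon regulatory factor of alternative activation, rose from 8.47 and 10.2 to 203 and 224 CPM (4.51 ± 0.16). Egr2, an early growth response factor, rose from 35.1 and 35.8 to 382 and 422 CPM (3.5 ± 0.11). In these 3 genes the LPS libraries lay below the control libraries, with Irf4 at 0.522 and 0.419 CPM and Egr2 at 13.7 and 13.8.

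Other factors of this group rose too. The PPAR coactivator Ppargc1b rose by 3.71 ± 0.17, the circadian and cytokine repressor Bhlhe40 by 2.87 ± 0.15, Nfil3 by 2.75 ± 0.21, Fosl2 by 1.63 ± 0.14, Batf by 1.64 ± 0.24 and Klf4 by 1.47 ± 0.09 log2 units. Kdm6b, the histone H3 lysine 27 demethylase also called Jmjd3, rose from 10.6 and 7.97 to 22 and 23.7 CPM (1.3 ± 0.16, adjusted p = 0.0041) and held. The nuclear receptor Pparg rose from 41.1 and 45 to 56.8 and 58 CPM, which was the smallest rise of the list (0.42 ± 0.1), and its call was lost in 4 of the 6 fits without 1 library. Myc rose by 0.66 ± 0.13, Cebpa by 0.82 ± 0.21 and Atf3 by 0.46 ± 0.11, and none of these 3 held.

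The 3 falls were in Fos, an immediate early AP-1 factor (from 341 and 331 to 62.4 and 62.2 CPM, -2.43 ± 0.1), in Bhlhe41 (-1.14 ± 0.13) and in Maf (-0.80 ± 0.11), of which Maf did not hold. Bhlhe40 and Bhlhe41 encode related repressors and moved in opposite directions.

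Most effectors of alternative activation rose: 15 of 24 tested rose and 2 fell, where 9.64% of all genes rose and 10.5% fell. Their median was 2.91 (the same with Retnla and Chil4, at 0 counts in control, set to their lower bounds). Of the rises, 13 held. Chil3, the chitinase-like protein Ym1, rose from 0.792 and 0.68 to 33.1 and 27.6 CPM (5.36 ± 0.17), and its near-identical copy Chil4 from 0 counts to 183 counts, at least 61.9-fold; reads shared between such copies make both values uncertain. Mrc1 rose from 207 and 291 to 3432 and 2613 CPM (3.6 ± 0.23, adjusted p = 0.00057). The galactose-type lectins Mgl2 and Clec10a rose by 5.32 ± 0.16 and 3.22 ± 0.22, and Clec7a, the beta-glucan receptor Dectin-1, by 3.02 ± 0.22 log2 units. Ptgs1, a cyclooxygenase, rose from 56.9 and 53.1 to 354 and 413 CPM (2.8 ± 0.14), where the LPS libraries were at 6.02 and 5.03. The transcription factor Tfec, a member of the effector list, rose by 2.8 ± 0.12.

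Not every classic marker moved. Vegfa, a vascular growth factor, fell from 146 and 133 to 49.3 and 48.6 CPM (-1.51 ± 0.1). F13a1, a coagulation factor subunit, fell by 0.39 on the log2 scale (SE 0.1) but did not hold, and Tgm2, a transglutaminase used as a marker of this state in human and mouse cells, rose by 0.62 ± 0.16 and did not hold. Fn1 and Il1rn were not called, with log2 fold changes of 0.06 and 0.26. Ear2 rose from 0.096 and 0.0234 to 0.571 and 0.448 CPM, and its call was lost in 4 of the 6 fits without 1 library. Alox15, a lipoxygenase, was at most 0.117 CPM in these 4 libraries and was not tested.

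Chemokine genes that IL-4 is known to induce rose in 6 of 8 tested cases, where 9.64% of all genes rose. The list median was 1.81, and 4 of the 6 rises held. Ccl24, or eotaxin-2, rose from 0.984 and 0.961 to 15.2 and 15.6 CPM (3.98 ± 0.17). The monocyte attractants Ccl7 and Ccl2 rose from 1.8 and 2.13 to 44.7 and 43 (4.48 ± 0.23) and from 3.41 and 3.66 to 26.3 and 27 CPM (2.92 ± 0.13). For Ccl7 the LPS libraries, at 71.5 and 49, did not pass the test of the difference from IL-4 (log2 difference -0.46 ± 0.19, adjusted p = 0.098), whereas for Ccl24 they stayed at 3.58 and 2.83 (log2 difference 2.27, adjusted p = 0.00013). Ccl22 was not called (0.912 and 0.868 in control, 1.71 and 2.17 with IL-4; 1.13 ± 0.30, adjusted p = 0.053). Ccl17 had 0 counts in control and 19 with IL-4, at least 6.42-fold higher, and was too low to be tested.

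Of 21 tested genes of arginine and polyamine metabolism, 4 rose and none fell (median 0.14), where 9.64% of all genes rose. Of the 4 rises, 3 held. Beside Arg1 these were Slc7a2, the cationic amino acid transporter CAT2, which rose from 16.8 and 20.1 to 761 and 763 CPM (5.37 ± 0.14), and Slc7a1, its relative CAT1, which rose by 0.87 ± 0.10. Slc7a2 reached 834 and 769 CPM in the LPS libraries, and the log2 difference of IL-4 from LPS was -0.07 ± 0.12 (adjusted p = 0.64). For Arg1, given above, the same difference passed the test. Srm, spermidine synthase, rose by 0.69 ± 0.12 and did not hold. Odc1, the first enzyme of polyamine synthesis, the mitochondrial arginase Arg2 and the nitric oxide synthase Nos2 were not called, with log2 fold changes of 0.27, 0.06 and -1.13. Nos2 stood at 0.0778 and 0.112 CPM with IL-4 and at 667 and 322 with LPS.

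Genes of macrophage fusion, by which IL-4 gives multinucleated giant cells, rose in 6 of 20 cases and fell in 1. Their median was 0.07, and over all genes 20.1% were called. The rises that held were Cdh1, Ccl2, Ocstamp (0.432 and 0.422 to 3.71 and 4.66 CPM, 3.29 ± 0.22) and the proton pump subunit Atp6v0d2 (20.9 and 28.5 to 119 and 78.6 CPM, 2 ± 0.26). Dcstamp, the other fusion receptor of this pair, was not called (3.05 and 3 in control, 2.1 and 2.13 with IL-4). Mmp12, of the same list, was not called either (log2 fold change -0.27). The adhesion proteins Cd44 and Cd9 rose by 0.84 ± 0.11 and 0.63 ± 0.09 and did not hold.

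Antigen presentation and costimulation genes rose in 9 of 15 tested cases and fell in 1, where 9.64% of all genes rose and 10.5% fell. The list median was 0.76, and 5 of the rises held. Cd40, the receptor for T cell CD40 ligand, rose from 7.1 and 6.8 to 66.6 and 65.5 CPM (3.25 ± 0.2), and the PD-1 ligand Cd274 from 38.8 and 52.5 to 258 and 263 (2.51 ± 0.16). Both were higher still with LPS (373 and 256, and 750 and 781 CPM), unlike the second PD-1 ligand Pdcd1lg2 (1.43 and 1.43 CPM with LPS). Cd86 and Cd83 rose by 1.81 ± 0.10 and 1.83 ± 0.16. H2-DMa, which helps to load peptides on class II molecules, rose by 1.64 ± 0.18. The class II chains H2-Aa and H2-Ab1 themselves were not called (0.11 ± 0.13 and 0.16 ± 0.18), and their transactivator Ciita rose by 0.76 ± 0.15 without holding. Icosl, a ligand for the T cell receptor ICOS, fell from 17.9 and 15 to 4.88 and 5.42 CPM (-1.67 ± 0.16).

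Among the 20 largest falls, 15 held, and Adgb, Calcrl, Cxcl1, Lipg and Mir155hg did not. The mean CPM used to choose them includes the LPS libraries, through which genes low in control such as Mir155hg, Fpr1, Trim30b, Lipg and Cxcl1 passed. Cx3cr1, the fractalkine receptor of monocytes and tissue macrophages, fell from 144 and 137 to 5.14 and 5.69 CPM (-4.70 ± 0.13, adjusted p = 7.1e-05). Its annotated span, chr9:119901616-120069879 on the minus strand, overlaps Csrnp1, Gorasp1 and Xirp1 on the same strand. Nfkbiz, a nuclear regulator of NF-kappaB targets, fell from 40.2 and 53.7 to 4.57 and 3.07 CPM (-3.62 ± 0.26). The host gene of miR-155, Mir155hg, had 15 counts in control and none with IL-4, at least 4.93-fold lower.

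Several falls were in abundant genes. The lectin receptor Clec4d fell from 759 and 738 to 130 and 134 CPM (-2.50 ± 0.09), the laminin receptor chain Itga6 from 429 and 504 to 84.4 and 83.5 (-2.47 ± 0.13), and Pid1 from 335 and 381 to 60.3 and 63.7 (-2.53 ± 0.12). Genes were taken into the 20 largest falls only where IL-4 and control libraries did not overlap. Falls also came in the aromatic amino acid transporter Slc16a10 (-2.53 ± 0.11), the junction protein gene Cgnl1 (-2.77 ± 0.18), the chemokine Cxcl14 (-2.58 ± 0.17), the phosphatase Ptpn22 (-2.75 ± 0.19) and the growth factor signalling inhibitor Spry2 (-2.69 ± 0.2). Ifit3 was the last of the 20 at -2.44, and Fcrl1 stood just outside at -2.43.

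**Figure D4:**
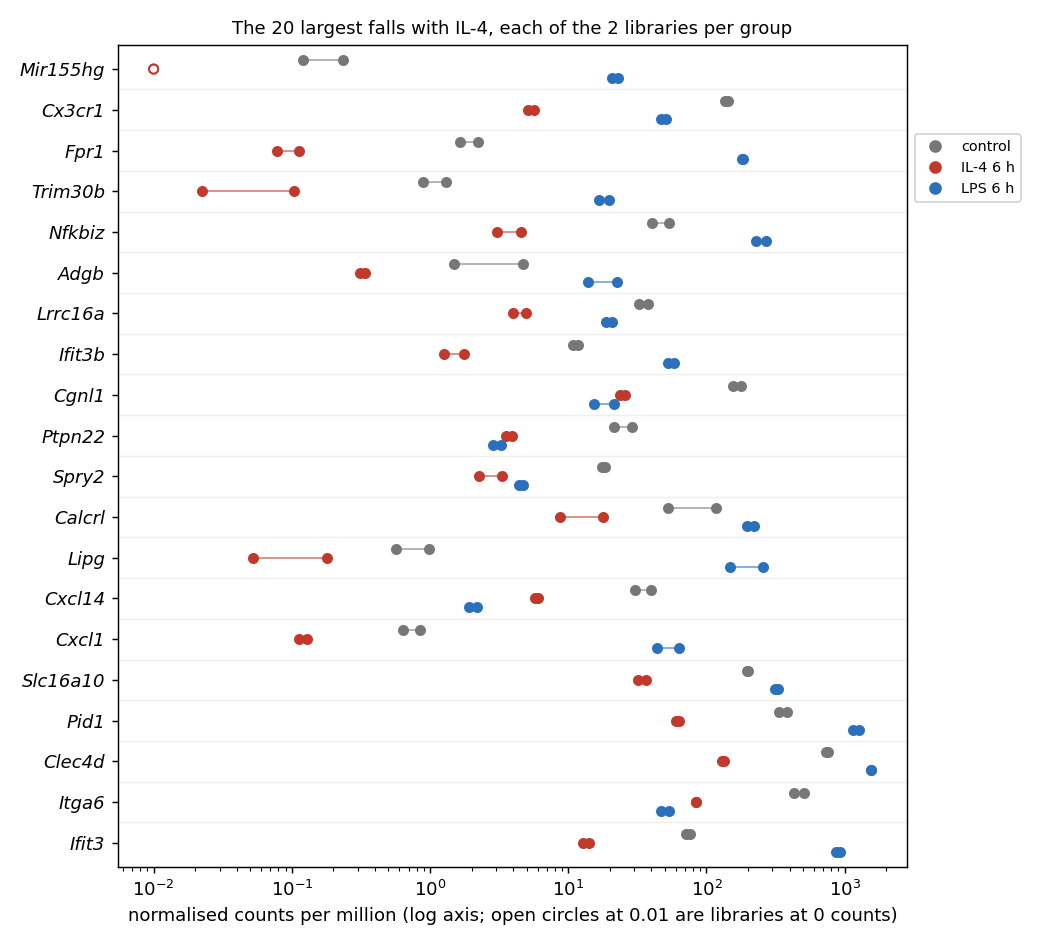
Normalised CPM (log axis) of the 20 genes with the largest falls in each control, IL-4 and LPS library; open circles at 0.01 are libraries with 0 counts. By the rule that chose these genes, both IL-4 points lie to the left of both control points in every row. The LPS points lie to the right of control for Clec4d (1562 and 1547) and to the left of it for Itga6 (47.1 and 53.9).

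Toll-like and other innate receptors fell in 11 of 27 tested cases and rose in none, where 10.5% of all genes fell and 9.64% rose. The list median was -0.39, and 8 of the falls held. Cd14, the LPS co-receptor, fell from 663 and 562 to 135 and 135 CPM (-2.18 ± 0.16, adjusted p = 0.00078). Tlr2, the receptor for bacterial lipoproteins, fell from 242 and 227 to 56 and 59.5 (-2.02 ± 0.11). Clec4e, the receptor Mincle for mycobacterial glycolipid, fell from 88.1 and 84.6 to 22.5 and 20.9 (-1.99 ± 0.1). These genes had IL-4 libraries below and LPS libraries above the control libraries, with Clec4e at 4450 and 4314 CPM with LPS. The formyl peptide receptors Fpr1 (-4.28 ± 0.26) and Fpr2 (-2.1 ± 0.24) fell from control levels of 1.56 to 2.25 CPM, and the muramyl dipeptide sensor Nod2 fell as well (-1.94 ± 0.28). Tlr4 was not called, at 83 and 233 CPM in control and 259 and 133 with IL-4, and its replicates followed the within-group difference seen in Xist.

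Interferon response genes fell in 19 of 30 cases and rose in 1, where 10.5% of all genes fell and 9.64% rose. Their median was -0.79, and 8 of the falls and the rise held. Ifit1, an RNA-binding antiviral protein, fell from 71.8 and 61.5 to 14.1 and 16.8 CPM (-2.11 ± 0.14), and Ifit3 from 75.6 and 71.3 to 12.8 and 14.2 (-2.44 ± 0.11). Its copy Ifit3b fell by 2.90 on the log2 scale (SE 0.18), with the same doubt over shared reads as for Chil3. Cxcl10, an interferon-induced chemokine, fell from 5.09 and 3.82 to 0.675 and 1.37 CPM (-2.1 ± 0.33). The antiviral genes Oasl1 (-1.8 ± 0.22), Rsad2 (-1.56 ± 0.19) and Oas3 (-1.02 ± 0.1) fell too. Zbp1, a sensor of left-handed nucleic acids, rose from 41.7 and 34.9 to 75 and 74.5 CPM (0.97 ± 0.12). Isg15 (-0.9 ± 0.19) fell without holding, and Irf7 was not called (0.40 ± 0.17). The interferon-type motif stood in 7 of 18 promoters (38.9%) of the genes of this list that fell, and in 13 of 27 promoters (48.1%) of the whole list.

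Inflammatory cytokines and mediators fell in 7 of 22 tested cases and rose in 3, where 10.5% of all genes fell and 9.64% rose. The list median was -0.42, and 4 of the falls and none of the rises held. Some members, such as Il1b and Il6, were low in untreated cells. Tnf fell from 17.3 and 16 to 9.34 and 9.73 CPM (-0.81 ± 0.14), and lost its call without control replicate 1 or either IL-4 library (adjusted p up to 0.11). Il1b was not called (3.98 and 3.82 to 2.62 and 2.44 CPM, adjusted p = 0.15), and Il6 was at most 0.048 CPM in these 4 libraries. The falls that held were Nfkbiz, the signalling adaptor Traf1 (21.7 and 20.1 to 7.63 and 8.07 CPM), the cytokine Il18 (-1.39 ± 0.17) and the inflammasome sensor Nlrp3 (65.8 and 70 to 33.6 and 32 CPM, -1.05 ± 0.12). Ptgs2, the inducible cyclooxygenase, rose by 1.69 ± 0.40 and Ccl4 by 1.15 ± 0.18, and neither held. LPS libraries were at 1623 and 1013 CPM for Il1b and at 445 and 353 for Tnf.

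Receptors for chemokines and growth factors fell in 7 of 21 tested cases and rose in 2 (20.1% of all genes were called, list median -0.23). The rises, which held, were Csf2rb, the common beta chain for GM-CSF, IL-3 and IL-5 (787 and 636 to 2061 and 2382 CPM, 1.64 ± 0.15), and Csf3r, the G-CSF receptor (88 and 82.4 to 238 and 262 CPM, 1.55 ± 0.1). Of the falls only Cx3cr1 held. The chemokine receptors Ccr2 (-1.75) and Cxcr4 (-1.05) and the cytokine receptor Il17ra (-1.4) each lost the call without an IL-4 library.

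None of 27 oxidative phosphorylation genes was called, although 24 of them had a fold change above 0 (median 0.18). Fatty acid oxidation genes rose in 1 and fell in 4 of 25 cases, tricarboxylic acid cycle genes rose in 2 and fell in 1 of 24, glycolysis and hypoxia genes rose in 1 and fell in 3 of 21, and cholesterol synthesis genes fell in 2 of 22; none of these calls held, and over all genes 20.1% were called. Among them, the lysosomal lipase Lipa fell from 2074 and 1994 to 1097 and 1200 CPM (-0.82 ± 0.11), with an adjusted p of 0.067 without IL-4 replicate 1. Acod1, which makes itaconate, fell from 21.6 and 17.1 to 8.69 and 8.94 CPM (-1.13 ± 0.15), with 0.054 without that library. The fatty acid carriers Fabp4 (-0.67) and Fabp5 (-0.69) and Cpt1a (-0.45), the gate of mitochondrial fatty acid import, fell by less.

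Genes of glutamine use and the hexosamine pathway rose in 2 and fell in 3 of 21 cases, where 20.1% of all genes were called. Slc7a5, a carrier of large neutral amino acids, rose from 6.12 and 4.78 to 15 and 15.3 CPM (1.47 ± 0.17) and held; the glutamine carrier Slc1a5 rose by 0.74 ± 0.11 and did not hold. Glul, glutamine synthetase, was not called (717 and 624 in control, 620 and 651 with IL-4). Of 23 tested 2-oxoglutarate-dependent dioxygenase and Polycomb genes, 1 rose (Kdm6b) and 2 fell (the prolyl hydroxylase Egln3, -1.13, and the demethylase Phf8, -0.81). Only Kdm6b held. Tet2 was not called (19.6 and 57.8 in control, 114 and 69.2 with IL-4).

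Lipid handling genes split: 4 of 21 rose and 6 fell, where 9.64% of all genes rose and 10.5% fell. The cholesterol exporter Abcg1 rose from 278 and 240 to 536 and 576 CPM (1.1 ± 0.13), while its partner Abca1 fell from 711 and 883 to 474 and 421 (-0.83 ± 0.15, adjusted p = 0.12 without IL-4 replicate 2). Mylip, a ligase that degrades the LDL receptor, fell by 1.15 on the log2 scale (SE 0.1). Abcg1 and Mylip held and the other 8 calls did not. Abca1, Abcg1 and Mylip are all known targets of the nuclear receptor LXR, and Nr1h3, which encodes its alpha form, fell by 0.85 on the log2 scale (SE 0.12).

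Ribosome biogenesis genes rose in 10 of 24 cases and fell in none, where 9.64% of all genes rose and 10.5% fell. The median was 0.53, and each rise was by less than 1 log2 unit. Rrp12 rose from 13.9 and 13.8 to 25.1 and 26.2 CPM (0.89 ± 0.09) and was the only 1 that held. Fbl, Nop16 and Nolc1 rose by 0.84, 0.83 and 0.80. Ncl, which encodes nucleolin, was not called, at 196 and 373 in control and 525 and 374 with IL-4.

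Cell cycle genes rose in 2 and fell in 2 of 25 cases, where 20.1% of all genes were called. The inhibitor Cdkn1a, or p21, rose from 359 and 287 to 828 and 858 CPM (1.38 ± 0.15) and held. Cyclin D1, Ccnd1, rose by 0.61 ± 0.09, and the replication clamp Pcna (-0.62) and the mitotic kinase Plk1 (-1.01) fell, and none of these held. Mki67, the proliferation marker, was not called (6.91 and 30.3 in control, 46.8 and 23.5 with IL-4). In the unfolded protein response list, Pdia4, a protein disulfide isomerase of the endoplasmic reticulum, rose from 81.3 and 82.3 to 607 and 662 CPM (2.96 ± 0.1) and held. The chaperone Hspa5 rose by 0.38 ± 0.1, and the stress sensor Atf6 (-0.46) and Edem1 (-0.39) fell, and these did not hold. Lysosome genes rose in 1 and fell in 3 of 21 cases, with Ctsl from 2459 and 2410 to 1298 and 1451 CPM (-0.83 ± 0.1), and none held.

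**Figure D5:**
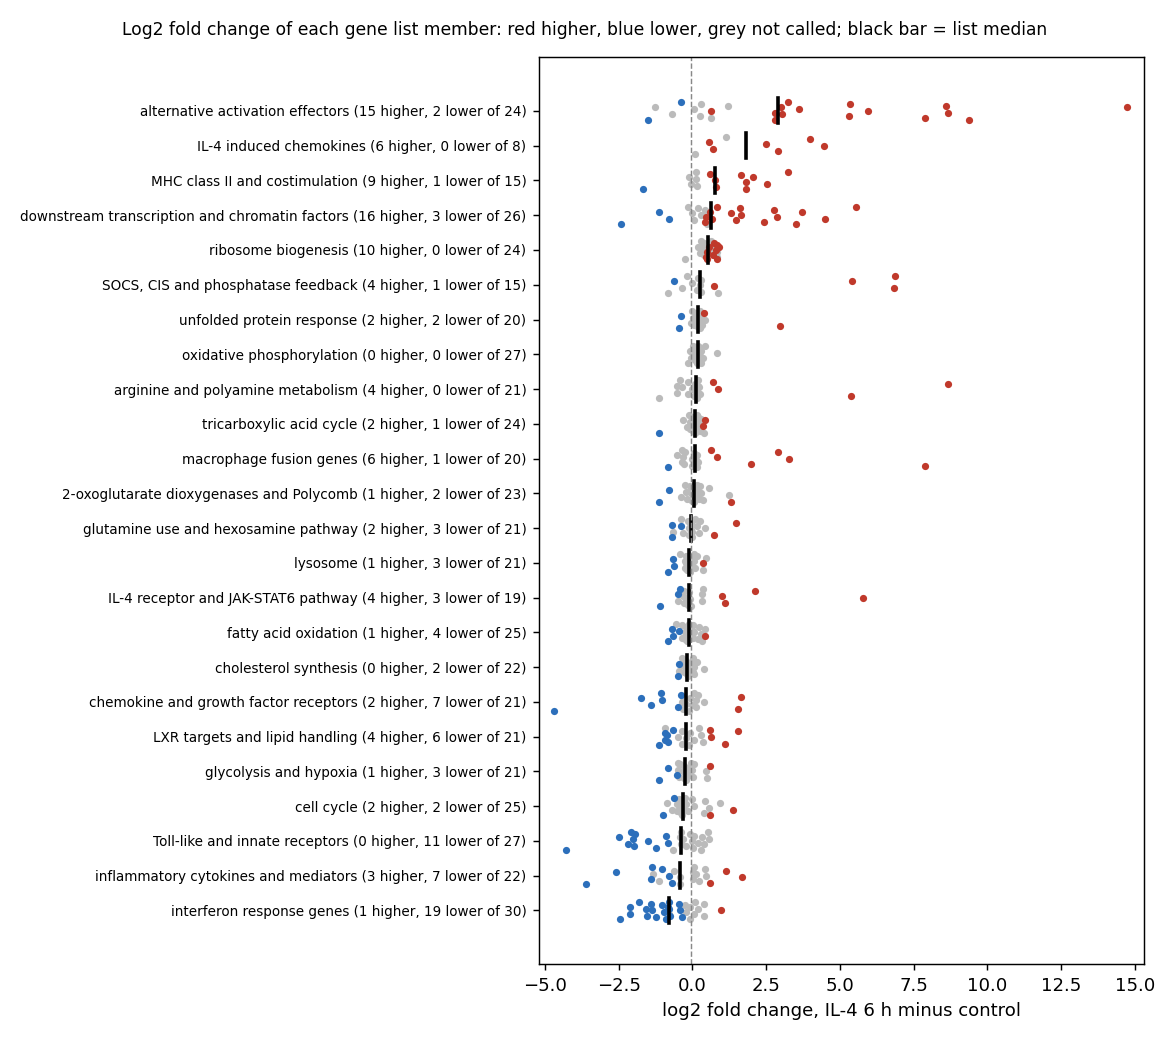
Log2 fold change (IL-4 minus control) of each tested member of the 24 pathway lists, with the list's median as a black bar and all lists sorted by it. Red points rose, blue points fell and grey points were not called; the medians run from 2.91 for alternative activation effectors to -0.79 for interferon response genes.

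Markers of other cell types were summed by list. The 8 dendritic cell markers summed to 1.22 and 1.24 CPM in control and to 7.39 and 6.63 with IL-4, and of 4 tested, the transcription factor Zbtb46 rose from 0.336 and 0.258 to 5.21 and 4.84 CPM and the cytokine receptor Flt3 from 0.12 and 0.164 to 1.43 and 1.23. Xcr1 and Ccr7, other markers of that list, were not called. The 8 neutrophil markers summed to 4.27 and 3.63 CPM in control and to 3.42 and 3.56 with IL-4. Cxcr2 rose from 1 count to 93 counts over the group (94.3-fold, 95% exact interval 16.5 to 3765, counting error only). S100a8 fell from 1.54 and 1.5 to 0.701 and 0.56 CPM without holding, and Ly6g was at 0. Gata2, of the mast cell and basophil list (sums of 1.9 and 1.88 in control, 4.54 and 4.21 with IL-4), rose from 1.18 and 0.774 to 3.53 and 3.43 CPM, with the mast cell proteases Tpsb2 and Cma1 at 0 and the receptor Kit not called (-0.03 ± 0.33). Siglecf, of the eosinophil list, rose by 1.1 ± 0.25 and did not hold, while Ccr3 of that list was not called (15.4 and 27.7 in control, 20.7 and 14.4 with IL-4). Osteoclast markers summed to 92.1 and 83.7 CPM in control and to 64.7 and 67.3 with IL-4; of 4 tested, Ocstamp rose and Nfatc1 fell (-0.62 ± 0.11) without holding. Stromal markers summed to 99.6 and 107 CPM in control and to 72.5 and 79.1 with IL-4, and none was called. Il7r made up nearly all of the lymphocyte markers (119 and 179 in control, 122 and 79.3 with IL-4) and was not called, and the erythroid genes Hba-a1 and Hbb-bs were at 0. The part of other cells in the results was not tested.

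Set against the LPS libraries in the same model, the IL-4 libraries were higher for 3717 genes (29.7%) and lower for 2928 (23.4%), in a contrast that holds no control library. Irf4 (8.81 log2 units), B3gnt7 (8.58), Itgb3 (6.77), Socs2 (6) and Pdcd1lg2 (5.87) were among the genes higher with IL-4. Genes lower with IL-4 included Fpr1 (-10.84), Acod1 (-9.61), Il1b (-9.02) and Socs3 (-8.09). Tfec (-0.38), Ccl2 (-0.53) and Jak2 (-1.46) rose over control and yet stood lower than with LPS. For Csf3r the same difference was -0.99 (adjusted p = 0.0006), and for Cdkn1a -0.73 (adjusted p = 0.0075). All differences from LPS depend on the TMM scaling, which matters most for small ones such as those of Tfec, Ccl2, Cdkn1a and, above, Slc7a2. The TMM factors were 1.13 and 1.12 for the IL-4 libraries and 0.791 and 0.822 for the LPS libraries. Tfec had 2681 and 3064 raw counts with IL-4 and 2608 and 2566 with LPS.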

How the data were processed

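RNA from the 6 stimulation libraries was read as raw counts per gene symbol, deposited by the authors. The submitters' processing notes name STAR, HTSeq and mm10, and the labels' protocols a stranded TruSeq kit. The versions and the HTSeq strand setting, not given in the sources used here, leave overlapping genes less certain. Of 151 named genes, 150 matched GENCODE vM21. Among these, 11 have a same-strand and 37 an opposite-strand gene in their span. Totals were 37.38 and 39.06 M counts in control, 34.23 and 39.76 with IL-4 and 36.35 and 34.84 with LPS. The 12 endotoxin-tolerant libraries were not used here.

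All 6 libraries were fitted by group in edgeR 4.0.16 (R 4.3.3) with TMM, filterByExpr and the quasi-likelihood F test, leaving 3 residual degrees of freedom (biological coefficient of variation 0.174). Of 23052 symbols, 16715 had a count and 12506 were tested. Calls had a Benjamini-Hochberg adjusted p under 0.05. Standard errors are of the log2 fold change.

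The members, lists and tests were chosen with earlier results of these data known. Named genes were the 20 largest rises and falls (log2 CPM averaging 2 or more, groups not overlapping), the 4 list members with the smallest p, and 20 fixed genes. Further list members and the promoters shown were picked after their values were seen. Some list members are not reported here. Deviations of same-number replicates correlated at -0.66 (control and IL-4), 0.50 (control and LPS) and -0.37 (IL-4 and LPS); not all were positive, so replicates were not paired. Alternatives were RLE size factors, no filter, 1 CPM in 2 libraries, DESeq2 1.42.0, limma-voom 3.58.1, a fit of 2 groups, a block on replicate number, and 1 library left out at a time.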

Additional observations from a re-analysis of the deposited data

How the results depend on the processing

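With 2 libraries a group, single libraries set much of the count. Leaving out 1 library gave 512 to 1341 rises and 339 to 1222 falls for IL-4 against control, with the low ends when an IL-4 library was left out, where that group has 1 library and is assumed to vary like the others. For IL-4 against LPS the ranges were 2594 to 4087 and 2029 to 3351. Fitting only the 2 groups compared gave 752 falls. The replicate block gave 963 rises and 911 falls, and 3455 and 2662 against LPS, although the replicate numbers do not pair the libraries. Same-numbered control and IL-4 libraries deviated in opposite directions (correlation -0.66), and a crossed replicate block, chosen after seeing the data, gave 1854 rises and 2134 falls. The cause was not tested. DESeq2, limma-voom, RLE size factors and both other filters on low counts gave 1134 to 1293 rises and 1146 to 1317 falls, within 1.5 times of 1205 and 1308.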
